A study of Mus musculus with 8 samples.

Results

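The transcription factor genes Foxo1 and Foxo3, and the FOXO target genes Sesn1, Sesn3, Ccng2, Bcl6, Cited2, Txnip, Gabarapl1 and Bnip3, were compared across 3 models of insulin resistance in 3T3-L1 adipocytes. They were selected by symbol from the probe annotation, which named all 10 of them among 18193 genes with a probe set of their own. The cells were of the mouse line 3T3-L1, fibroblasts that become fat cells in culture. They were made insulin resistant with prolonged insulin (the CI model, 2 arrays), with the inflammatory cytokine tumour necrosis factor (the TNF model, 3 arrays) or with the synthetic glucocorticoid dexamethasone (the Dex model, 3 arrays). Every sample had also received the antioxidant MnTBAP, written MnTBP in the sample titles, for the last 6 hours. The study states that, in its authors' earlier work, MnTBAP restored the insulin response of glucose transporter translocation in each model. The model names therefore give the treatment, and whether these cells still resisted insulin is not given here. Doses and durations of the 3 models are not given in the sources used here, and neither untreated cells nor models without the antioxidant were analysed here. A gene described as higher in Dex than in CI can therefore equally be one that chronic insulin lowered. All samples come from 1 established cell line, and nothing in the labels says that arrays of a model were separate cultures, so p-values reflect the scatter among these arrays alone, and that scatter may be technical.

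FOXO proteins bind DNA and raise genes for fuel switching, growth arrest, stress defence and autophagy when insulin is scarce. Insulin acts through the kinase Akt, which phosphorylates FOXO proteins, so that they bind 14-3-3 proteins and leave the nucleus. This control acts on the protein, and the mRNA of a FOXO gene does not report how much of the factor is in the nucleus. Glucocorticoids and inflammatory cytokines reach many of the same target genes by other factors, among them the glucocorticoid receptor.

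Levels are log2 intensities of 1 probe set per gene, the one with the highest mean over the 8 arrays. Levels of different genes are not compared, because probe sets differ in brightness. Differences come from 1 limma fit over all genes and are given on the log2 scale with their standard error (SE). A gene is said to rise or fall, or to be called, only where the Benjamini-Hochberg adjusted p was under 0.05 and the difference exceeded 0.5. Members lay between 8.72 and 13.15 on all arrays, above the median gene of any array (7.89 to 7.93). The arrays of a model were alike, with Pearson's r of 0.996 to 0.998 across probe sets, against 0.986 to 0.991 between models.

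A label gives the tissue as preadipocytes and the source name gives adipose cells, so the cells were checked against marker genes. The adipocyte genes Adipoq and Fabp4 lay between 14.31 and 14.45 on every array, whereas Lep, the leptin gene, lay between 5.69 and 7.17. Adipoq and Fabp4 were at percentile 99.967 or above on every array. Their even levels may in part reflect the top of the scale, which was not tested. Dlk1, a preadipocyte gene, was also bright, at 12.00 to 13.10. The summed intensity of 9 adipocyte markers was 101374 to 102652 in CI, 78288 to 81138 in TNF and 95965 to 100261 in Dex. That of 9 preadipocyte and fibroblast markers was 45720 to 47985 in CI, 47659 to 53295 in TNF and 29402 to 33454 in Dex. Such sums weigh the brightest genes most. Of the 9 adipocyte markers, 6 were called lower in TNF and 3 in Dex against CI by limma, and none higher. Over all genes 5.23% and 5.67% were called lower. Pparg (-0.52 in TNF and -0.61 in Dex) and Slc2a4 (-0.63 and -0.65) were among those that fell in both models. So was Lep, which lay below the median gene and at 7.17 and 6.26 on the CI arrays. Of the 9 preadipocyte and fibroblast markers, 2 were called higher in TNF and 4 lower in Dex, each against CI. Between TNF and Dex, 6 were higher in TNF, and none was called the other way in any comparison. Over all genes 3.00%, 5.67% and 4.14% were called in these directions. Among 10 macrophage and leukocyte markers the sum was 2766 to 2801 in CI, 3931 to 4211 in TNF and 2774 to 2816 in Dex, and Cd14 and Lyz2 were the only ones called in any comparison, while Ptprc (4.46 to 4.77), Mrc1 (4.60 to 4.84), Itgam (5.51 to 5.92), Cd68 (6.23 to 6.81), Cd79a (6.59 to 6.85) and Adgre1 (6.59 to 6.93) lay below the median gene on every array. Csf1r (8.44 to 8.92) and Cd3e (8.14 to 8.48) lay above it, and Csf1r exceeded CI in TNF without overlap by 0.40 ± 0.07 (limma adjusted p = 0.00228), under the minimum size. These shifts accompany every comparison below and their part in the results was not tested. In a bulk culture, fewer cells of a kind and less RNA in each cell cannot be told apart. All 6 genes of a glucocorticoid list were called higher in Dex than in CI, where 3.33% of all genes were. Of 5 genes of a TNF list, 4 were called higher in TNF than in CI, where 3.00% of all genes were. The exception was Tnfaip3 (0.30 ± 0.16). Both lists were chosen with earlier results of these data known, so these counts are not an independent check. The chronic insulin model had no such list. Fkbp5, a direct glucocorticoid target, averaged 13.09 in Dex against 10.12 in CI and 10.44 in TNF, and Saa3, an acute phase gene, averaged 14.11 in TNF, with means of 8.93 for CI and 8.92 for Dex.

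The question was how genes under FOXO control differ between models in which insulin resistance was induced by different treatments, all with MnTBAP added. Dexamethasone was the model with the highest Foxo3 and Gabarapl1 and the lowest Sesn3, and by their means Bcl6, Cited2 and Sesn1 were lowest in TNF. Against CI, 2 of the 10 genes fell in TNF and none rose by limma (6 had an unadjusted p under 0.05), where 8.22% of all genes were called (3.00% higher and 5.23% lower). Against CI in Dex, 2 rose and 1 fell, where 9.00% of all genes were called (3.33% higher and 5.67% lower). Between TNF and Dex, 1 was higher and 2 were lower in TNF, where 7.30% of all genes were called (4.14% higher and 3.16% lower). The median difference over the 10 genes was -0.04 between TNF and CI, 0.13 between Dex and CI and, TNF minus Dex, -0.43, beside 0.03, 0.02 and 0.01 over all genes. The TNF and CI arrays did not overlap for 8 of the 10 genes, 3 higher and 5 lower in TNF, beside 53.0% of all genes (28.3% higher and 24.7% lower). The Dex and CI arrays did not overlap for 8, 5 higher and 3 lower in Dex, beside 48.0% (24.9% higher and 23.1% lower). The TNF and Dex arrays did not overlap for 6, 1 higher and 5 lower in TNF, beside 35.9% (18.0% higher and 17.9% lower). TNF against CI and Dex against CI share their CI arrays, so they are not independent of each other.

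**Figure D1:**
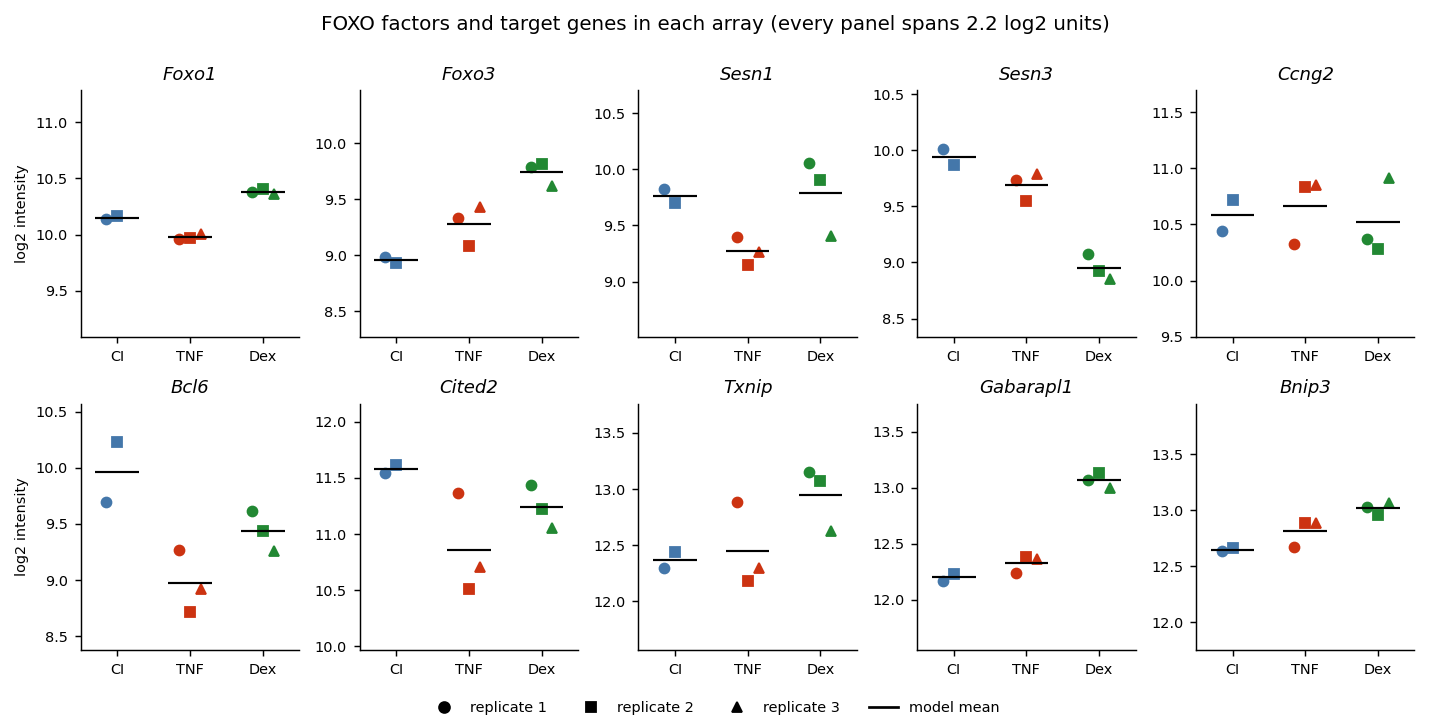
Log2 intensity (vertical axis) of the 10 genes in each of the 8 arrays, by model (horizontal axis), with symbols for the replicate number and a bar at the mean of each model. Gabarapl1 lay between 13.00 and 13.13 in Dex, above all CI and TNF arrays (12.17 to 12.38), whereas the Ccng2 arrays of the 3 models overlap.

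The factors themselves were read first. Foxo3 lay at 8.98 and 8.93 on the CI arrays, at 9.33, 9.09 and 9.43 under TNF, and at 9.79, 9.81 and 9.62 under Dex (replicates 1 to 3). The models did not overlap, and their order was Dex, TNF, CI. Foxo3 rose in Dex against CI by 0.79 ± 0.10 (SE; 1.72-fold, limma adjusted p = 0.000239). Its differences of 0.33 ± 0.10 between TNF and CI and of -0.46 ± 0.09 between TNF and Dex had adjusted p-values of 0.042 and 0.00442 but stayed under the minimum size. The second of these passed it without TNF replicate 3 (-0.53) or Dex replicate 3 (-0.52). Of the other Foxo3 probe sets, the bright one rose in Dex against CI by 0.68 ± 0.09 (the mean over all Foxo3 probe sets gave 0.52, still called), and the other, which was dim on every array, differed by 0.08 ± 0.08.

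Foxo1, the family member studied most in adipocytes and liver, spread little. It lay at 10.14 and 10.16 on the CI arrays, at 9.96, 9.97 and 10.01 under TNF, and at 10.38, 10.41 and 10.36 under Dex. The order was Dex, CI, TNF with no overlap between models, yet the gaps were narrow. Dex exceeded CI by 0.23 ± 0.07 (limma adjusted p = 0.0298), CI and TNF differed by -0.17 ± 0.07 (adjusted p = 0.094), and TNF lay below Dex by a difference of -0.40 ± 0.06 (adjusted p = 0.000603), none of them past the minimum size. This depended on the probe set for TNF against Dex, where a pair of dimmer Foxo1 probe sets gave -0.50 ± 0.06 and -0.52 ± 0.09 and were called. The probe set used here is of the kind (suffix _s_at) whose probes match more than 1 transcript. Foxo4, the only other family member measured, lay at 8.15 ± 0.04 in CI (mean ± SD, n = 2), 8.42 ± 0.08 in TNF (n = 3) and 8.57 ± 0.17 in Dex (n = 3). Its differences of 0.27 ± 0.10 for TNF and 0.43 ± 0.10 for Dex against CI did not pass.

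Kinases that phosphorylate FOXO proteins were among the 12 measured FOXO regulators. Of the 12, 2 rose in Dex against CI and none fell, where 9.00% of all genes were called. Between TNF and Dex 1 was called, lower in TNF, where 7.30% of all genes were called. None was called between TNF and CI by limma (7 of the 12 had an unadjusted p under 0.05), where 8.22% of all genes were called. The genes that rose in Dex were Akt1 and Sgk1, the second a kinase that glucocorticoids are known to induce. Sgk1 lay at 8.97 and 9.19 on the CI arrays, at 9.18, 8.70 and 8.56 under TNF, and at 10.54, 10.26 and 10.23 under Dex. It rose in Dex by 1.26 ± 0.16 against CI and was lower in TNF than in Dex by a difference of -1.53 ± 0.15. Akt1 rose in Dex against CI by 0.60 ± 0.11, although the mean over its probe sets gave only 0.36. Kinase mRNA and kinase activity are different quantities, and the second was not measured.

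**Figure D2:**
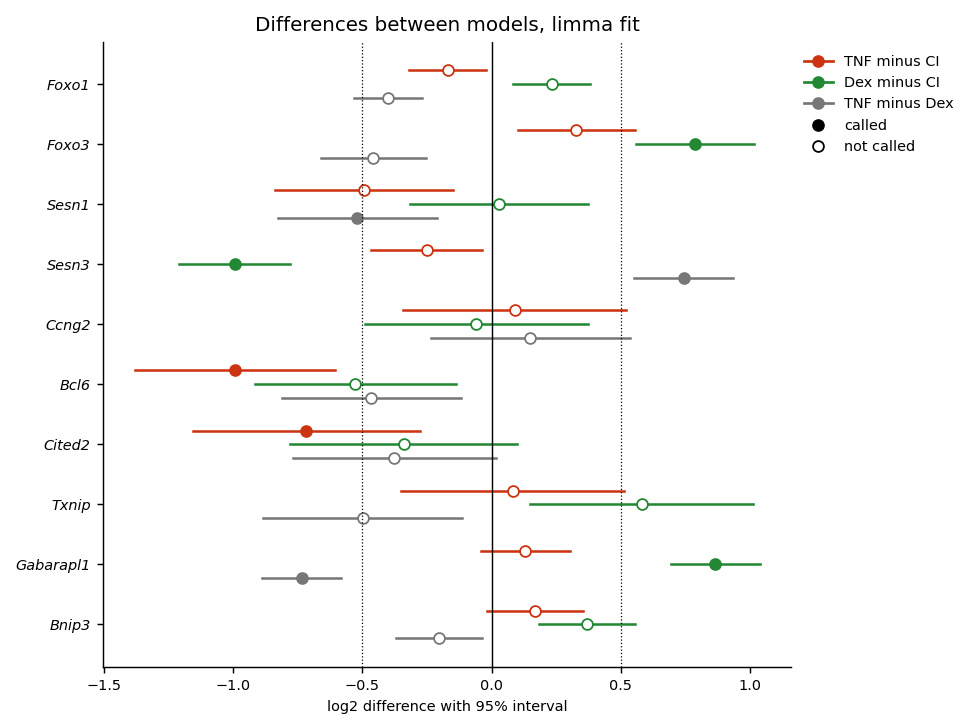
Differences between models on the log2 scale (horizontal axis) with 95% intervals for the 10 genes (vertical axis), filled where called, dotted lines at the minimum size of 0.5. Sesn3 in Dex against CI (-0.99) and Gabarapl1 in Dex against CI (0.87) lie farthest from the dotted lines together with Bcl6 in TNF against CI (-0.99), whose interval is wider.

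The sestrins are stress-inducible proteins that restrain the growth kinase complex mTORC1, and Sesn3 in particular is a known FOXO target. Sesn3 lay at 10.02 and 9.87 on the CI arrays, at 9.74, 9.55 and 9.79 under TNF, and at 9.08, 8.92 and 8.85 under Dex. The Dex arrays were the lowest, below every other array. Sesn3 fell in Dex against CI by 0.99 ± 0.10 (1.99-fold, limma adjusted p = 2.68e-05) and was higher in TNF than in Dex by 0.74 ± 0.09 (adjusted p = 0.000105). TNF and CI differed by -0.25 ± 0.10 (adjusted p = 0.0884), which did not pass. Here the probe sets disagreed, because the other Sesn3 probe set lay at 9.59 and 9.69 in CI but at 8.74, 8.47 and 8.76 in TNF. It fell by 0.98 ± 0.12 in TNF and by 1.52 ± 0.12 in Dex against CI, so the fall in Dex was seen with both probe sets and a fall in TNF with only 1 of them.

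Sesn1, the paralogue of Sesn3, gave another pattern. It lay at 9.82 and 9.70 on the CI arrays, at 9.39, 9.15 and 9.26 under TNF, and at 10.06, 9.91 and 9.40 under Dex. TNF was the lowest model, but Dex replicate 3 (9.40) nearly met the highest TNF array (9.39), which left these models just apart. Sesn1 was lower in TNF than in Dex by a difference of -0.52 ± 0.14 (limma adjusted p = 0.0215), and CI and Dex overlapped (0.03 ± 0.16). The difference of -0.49 ± 0.16 between TNF and CI (adjusted p = 0.0429) missed the minimum size by little and was called without TNF replicate 1 (-0.55). The call between TNF and Dex was lost without TNF replicate 2 (-0.46), TNF replicate 3 (-0.52), Dex replicate 1 (-0.39) or Dex replicate 2 (-0.46), with quantile normalization (-0.49), with the mean over probe sets (-0.44) and with the beta-actin control as a covariate (-0.25), with adjusted p-values of 0.00039 to 0.383 over all settings. That control subtracts the 5′ from the 3′ probe set of beta-actin and tracks RNA integrity. It stood at 0.75 in Dex replicate 3 and at 0.71 to 0.83 across TNF, but at 0.49 in each other Dex array and at 0.54 to 0.66 in CI. Its part in the Sesn1 result was not tested beyond that covariate. Of the other Sesn1 probe sets, 2 showed TNF below Dex by -0.56 ± 0.12 and -0.59 ± 0.16, both called, and the last was dim (mean 4.22) with a difference of -0.07 ± 0.10. For TNF against CI the same 2 gave -0.52 ± 0.13, which was called, and -0.53 ± 0.18, which was not. The Sesn1 probe set used here is also of the kind (suffix _s_at) whose probes match more than 1 transcript.

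Growth arrest and transcriptional repression are represented by Ccng2, Bcl6 and Cited2. Ccng2 encodes cyclin G2, an atypical cyclin that accumulates in cells that stop dividing and a gene that insulin represses in many cells. It lay at 10.44 and 10.72 on the CI arrays, at 10.32, 10.83 and 10.85 under TNF, and at 10.37, 10.28 and 10.91 under Dex. All models overlapped, and the spread inside TNF and Dex exceeded any difference of means. The limma differences were 0.09 ± 0.20 for TNF and -0.06 ± 0.20 for Dex, each against CI, and 0.15 ± 0.18 for TNF minus Dex, with 95% intervals of -0.34 to 0.52, -0.49 to 0.37 and -0.24 to 0.53. Changes as large as the fall of Sesn3 in Dex (0.99) lie outside these intervals. The other Ccng2 probe set gave -0.10, 0.04 and -0.14, again with none called by limma.

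Bcl6 encodes a zinc finger repressor. Its levels were 9.70 and 10.23 on the CI arrays, 9.27, 8.72 and 8.92 under TNF, and 9.62, 9.43 and 9.26 under Dex. Both CI arrays lay above all others, though they differed from each other by more than the Dex arrays did. Bcl6 fell in TNF against CI by 0.99 ± 0.18 (1.99-fold, limma adjusted p = 0.00223), and its other probe set fell by 0.95 ± 0.29. With 1 array left out the difference ran from -1.26 to -0.73 and stayed called. Dex and CI differed by -0.53 ± 0.18 (adjusted p = 0.0547) and TNF and Dex by -0.47 ± 0.16 (adjusted p = 0.0595), neither of which passed. The first was called under 7 of 20 settings, among them leaving out CI replicate 1 (-0.79) and either of TNF replicates 1 and 2 (-0.53 each), and the second without TNF replicate 1 (-0.62) or Dex replicate 3 (-0.56).

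Cited2 encodes a protein that binds the coactivators CBP and p300 and thereby restrains the hypoxia factor HIF-1. It lay at 11.54 and 11.61 on the CI arrays, at 11.36, 10.51 and 10.70 under TNF, and at 11.44, 11.22 and 11.05 under Dex. TNF replicate 1 stood near the Dex arrays, and the other TNF arrays were the lowest of all. Cited2 fell in TNF against CI by 0.72 ± 0.20 (limma adjusted p = 0.0241), and the other probe set fell by 1.06 ± 0.26. The call did not survive the loss of any CI array or of TNF replicate 2 or 3, the differences being -0.76 without CI replicate 1, -0.68 without CI replicate 2, -0.54 without TNF replicate 2 and -0.64 without TNF replicate 3, nor quantile normalization (-0.64), eBayes with trend and robust (-0.72) or the beta-actin covariate (-0.57), and adjusted p-values from 0.0002 to 0.148 over all settings. Dex against CI (-0.34 ± 0.20) and TNF against Dex (-0.38 ± 0.18) did not pass, and the latter was called without TNF replicate 1 (-0.63).

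Promoter sequence is shown for 6 of the genes, because FOXO proteins bind the core GTAAACA and because the hypoxia factor core lies inside the palindrome CACGTG. The windows searched run from 250 bases before to 50 bases after each transcript start in RefSeq (GRCm38.p6), on both strands, and all 10 genes matched, with 12 windows. GTAAACA occurred in 3.65% of 32851 such windows, ATAAACA in 4.60%, AAAACAA in 9.02%, CACGTG in 7.15% and CACGAG, a unit of the element through which glucose acts on Txnip, in 6.47%. Among the 10 genes, GTAAACA was found for Txnip and, 23 bases after a start site, for Sesn1. ATAAACA was found for Gabarapl1, AAAACAA for Ccng2 and Sesn1, CACGTG for Bcl6, Bnip3 and Cited2, and CACGAG for Txnip and Foxo3. The windows of Foxo1 and Sesn3 held none of these motifs. A match describes the letters only and is not a binding site or a cause. Capitals mark the motifs in the strand of transcription, at chr3:96557825-96557896 (+) for Txnip, chr6:129533080-129533119 (+) for Gabarapl1, chr5:93267542-93267572 (+) for Ccng2, chr16:23988893-23988932 (-) for Bcl6, chr10:17723061-17723095 (+) for Cited2 and chr7:138909597-138909628 (-) for Bnip3. In Txnip the first motif is GTAAACA and the others are CACGAG, and in Ccng2 the capitals are a pair of AAAACAA copies that overlap by 1 base.
Txnip: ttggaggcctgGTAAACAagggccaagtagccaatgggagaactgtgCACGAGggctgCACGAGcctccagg
Gabarapl1: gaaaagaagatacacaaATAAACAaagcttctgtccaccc
Ccng2: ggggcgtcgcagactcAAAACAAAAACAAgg
Bcl6: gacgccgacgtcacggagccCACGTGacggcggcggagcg
Cited2: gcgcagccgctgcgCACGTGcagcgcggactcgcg
Bnip3: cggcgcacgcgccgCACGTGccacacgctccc

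Txnip encodes thioredoxin-interacting protein, which binds thioredoxin and limits glucose uptake, and which insulin lowers in adipocytes. Its levels were 12.30 and 12.44 on the CI arrays, 12.88, 12.18 and 12.29 under TNF, and 13.15, 13.08 and 12.63 under Dex. Dex lay above CI on every array, while TNF replicate 1 reached into the range of Dex. Dex differed from CI by 0.58 ± 0.20 (limma adjusted p = 0.0569) and TNF from Dex by -0.50 ± 0.18 (adjusted p = 0.0678), neither of which passed, and TNF and CI differed by 0.08 ± 0.20. Dex against CI was called without Dex replicate 3 (0.74), or without TNF replicate 1 or 2 (0.58 each), which leaves the difference as it was and lowers the estimate of the spread. TNF against Dex was called without TNF replicate 1 (-0.72) or Dex replicate 3 (-0.66), and with the other Txnip probe set (-0.91 ± 0.22).

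Arrdc4, a gene of the same arrestin family that shares the glucose response of Txnip, was also measured. It lay at 9.07 and 9.40 on the CI arrays, at 8.84, 8.96 and 9.15 under TNF, and at 8.30, 8.31 and 8.56 under Dex. Arrdc4 fell in Dex against CI by 0.84 ± 0.12, where Txnip was at 0.58, although the other Arrdc4 probe set gave -0.42 and was not called. Arrdc4 was higher in TNF than in Dex by 0.59 ± 0.11 (limma adjusted p = 0.00265), a call lost with the beta-actin covariate. Txnip was at -0.50 there. The difference between the genes was not tested in either comparison. The other 4 glucose-sensing genes measured were Mlxipl and Mlxip, which encode the glucose-responsive factors ChREBP and MondoA, their partner Mlx, and Pklr. Mlx fell in TNF against CI by 0.53 ± 0.10, which quantile normalization (-0.46) or leaving out TNF replicate 1 (-0.44) put under the minimum size, and it differed by -0.48 ± 0.10 in Dex, which was called without Dex replicate 3 (-0.53). Mlxipl (0.03 and 0.24 for TNF and Dex against CI), Mlxip (0.05 and 0.20) and Pklr (0.15 and 0.11) did not pass.

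Gabarapl1 encodes a ubiquitin-like protein of the Atg8 family that is attached to autophagosome membranes. It lay at 12.17 and 12.23 on the CI arrays, at 12.24, 12.38 and 12.37 under TNF, and at 13.07, 13.13 and 13.00 under Dex. All Dex arrays were far above the rest, and the CI and TNF arrays were close together. Gabarapl1 rose in Dex against CI by 0.87 ± 0.08 (1.82-fold, limma adjusted p = 1.38e-05) and was lower in TNF than in Dex by a difference of -0.74 ± 0.07 (adjusted p = 2.04e-05), while TNF and CI differed by 0.13 ± 0.08 (adjusted p = 0.257). This probe set also matches more than 1 transcript, and the other Gabarapl1 probe set, of the ordinary kind, gave 1.12 ± 0.08 and -0.92 ± 0.07 for the same comparisons.

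Bnip3 encodes a mitochondrial outer membrane protein that marks mitochondria for autophagy and that hypoxia induces. Its single probe set lay at 12.64 and 12.67 on the CI arrays, at 12.67, 12.89 and 12.89 under TNF, and at 13.03, 12.96 and 13.07 under Dex. The order was Dex, TNF, CI, with TNF replicate 1 next to the CI arrays. Dex exceeded CI by 0.37 ± 0.08 (limma adjusted p = 0.00853) without reaching the minimum size, with a 95% interval of 0.18 to 0.56. TNF differed from CI by 0.17 ± 0.08 and from Dex by -0.20 ± 0.08, neither called.

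**Figure D3:**
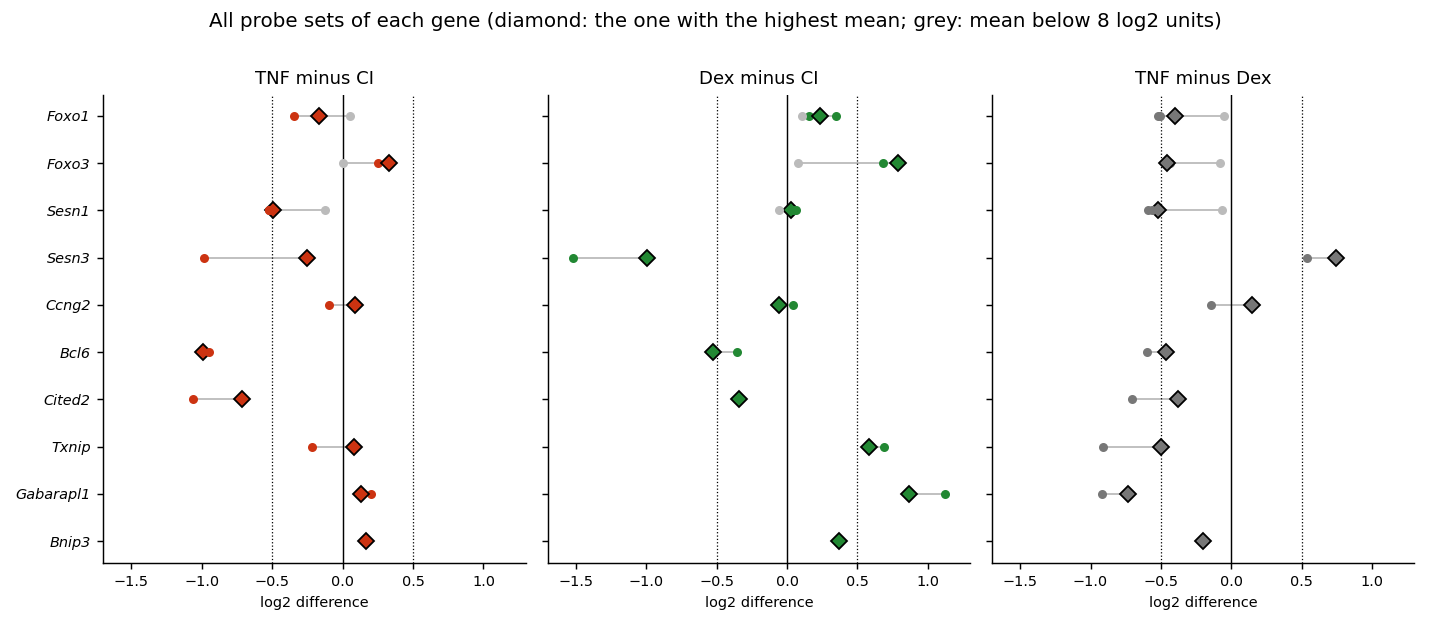
Log2 difference (horizontal axis) of every probe set of the 10 genes (vertical axis) in the 3 comparisons, with diamonds for the probe set used and grey for probe sets with a mean under 8. Dots and diamonds of Gabarapl1, Bcl6 and Cited2 lie on the same side of 0 within each comparison, whereas the Sesn3 probe sets span -0.98 to -0.25 for TNF against CI.

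Because Bnip3 and Cited2 are also tied to hypoxia signalling, 10 target genes of HIF were set beside them. In TNF against CI 3 of these rose and none fell, where 3.00% of all genes were called higher and 5.23% lower. In Dex against CI 1 rose and 1 fell, beside 3.33% and 5.67%. Between TNF and Dex, 4 were higher and none lower in TNF, beside 4.14% and 3.16%. The medians of the 10 genes were 0.20, -0.13 and 0.38 in that order, beside 0.03, 0.02 and 0.01 over all genes. Adm, the gene of the peptide adrenomedullin, rose in TNF by 1.11 ± 0.10 and in Dex by 0.92 ± 0.10 against CI. Ankrd37 rose in TNF against CI by 1.11 ± 0.15, and Ndrg1 by 0.58 ± 0.08, or 0.49 by the mean over its probe sets, which was not called. The collagen-modifying enzyme gene P4ha1 fell in Dex against CI by 0.71 ± 0.12, opposite in sign to the Bnip3 difference of 0.37 there. Higher in TNF than in Dex were Ankrd37 (1.19 ± 0.14), P4ha1 (0.90 ± 0.11), the glucose transporter Slc2a1 (0.86 ± 0.20) and the kinase gene Pdk1 (0.66 ± 0.18). Slc2a1 was not called with the beta-actin covariate (0.45), without TNF replicate 3 (0.76) or without Dex replicate 2 (0.70). Pdk1 was not called with that covariate (0.57), with the mean over probe sets (0.35), or without TNF replicate 2 (0.55), TNF replicate 3 (0.57), Dex replicate 1 (0.63) or Dex replicate 2 (0.59).

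The wider set of FOXO targets was read in the same way. Of 36 other targets measured, 11 rose and 3 fell in Dex against CI, where 3.33% of all genes were called higher and 5.67% lower. In TNF against CI 1 rose and 6 fell, beside 3.00% and 5.23%. Between TNF and Dex, 2 were higher and 7 lower in TNF, beside 4.14% and 3.16%. The medians of these targets were 0.22, -0.04 and -0.29 in that order, beside the medians of all genes given above. Several of these genes are also under direct glucocorticoid control in fat cells, Tsc22d3 among them.

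Genes of fuel and lipid metabolism among these targets were read next. Pdk4, whose kinase product shuts off pyruvate dehydrogenase, lay at 8.44 and 8.62 on the CI arrays, at 8.62, 8.53 and 8.56 under TNF, and at 11.64, 11.65 and 11.09 under Dex. It rose in Dex against CI by 2.93 ± 0.15, and CI and TNF overlapped. Apoc3, an apolipoprotein gene, was at 6.95 and 6.93 in CI and at 11.76 to 12.12 in Dex, a difference of 5.05 ± 0.22 whose size is uncertain because CI lay below the median gene. Pnpla2, which encodes the triglyceride lipase ATGL, rose in Dex against CI by 0.94 ± 0.08. In contrast Pck1, the gluconeogenic and glyceroneogenic enzyme gene that insulin represses in liver, was highest in CI, at 10.48 and 10.62 against 9.21, 9.48 and 9.10 in TNF and 7.94, 8.37 and 8.57 in Dex. It fell by 1.29 ± 0.16 in TNF and by 2.26 ± 0.16 in Dex, but with the mean over its probe sets by only 0.65 and 1.31, both still called. Ppargc1a, a coactivator of mitochondrial genes, fell in TNF against CI by 0.68 ± 0.13. In Dex against CI it differed by -0.49 ± 0.13 (limma adjusted p = 0.0165), under the minimum size. TNF and Dex differed by -0.19 ± 0.11, which was not called.

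Irs2 encodes an insulin receptor substrate and is a known FOXO target. It lay at 8.84 and 8.93 on the CI arrays, at 8.60, 8.54 and 8.47 under TNF, and at 9.47, 9.48 and 9.56 under Dex, without overlap between models. It rose in Dex against CI by 0.62 ± 0.07 and was lower in TNF than in Dex by a difference of -0.97 ± 0.07. Igf1r, the receptor of insulin-like growth factor, rose in TNF by 0.86 ± 0.08 and in Dex by 0.82 ± 0.08 against CI, with no call between TNF and Dex (0.04 ± 0.07), but by the mean over its probe sets the differences were 0.41 and 0.40 and were not called. The insulin receptor gene Insr, named here after its value had been seen, rose in Dex against CI by 0.60 ± 0.09, but by the mean over its probe sets the difference was 0.05 and was not called.

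Among targets in growth arrest, cell death, autophagy and stress defence, the directions were mixed. Tsc22d3, an anti-inflammatory leucine zipper gene, rose in Dex against CI by 2.13 ± 0.15, or by 1.21 with the mean over its probe sets. The cell cycle inhibitor genes Cdkn1a (0.74 ± 0.08), Cdkn1b (0.59 ± 0.12) and Rbl2 (0.59 ± 0.11), also named after their values had been seen, rose in Dex against CI. Without CI replicate 1 neither Cdkn1b (0.45) nor Rbl2 (0.49) was called, and Cdkn1b was not called by the mean over its probe sets (0.42). Gadd45a, a DNA damage response gene, fell by 1.57 ± 0.20 in Dex, at 9.66 to 9.73 against 11.12 and 11.40 in CI. Its fall in TNF of 0.68 ± 0.20 was not called without CI replicate 1 (-0.82), CI replicate 2 (-0.53), TNF replicate 2 (-0.54) or TNF replicate 3 (-0.55). Nor was it called with quantile normalization (-0.59), the beta-actin covariate (-0.57), only the 2 groups compared or eBayes with trend and robust (-0.68 each). Bbc3, a cell death gene also named after its value had been seen, fell by 0.58 ± 0.13 in TNF and by 0.70 ± 0.13 in Dex against CI. Without CI replicate 2 these differences were -0.34 and -0.46, under the minimum size. With the beta-actin covariate the Bbc3 difference between TNF and CI was not called. No other cell death target in the list was called in any comparison. Of other autophagy genes in the list, all named after their values had been seen, Map1lc3b of the Atg8 family rose in Dex against CI by 0.71 ± 0.07. Gabarap of the same family (0.06 ± 0.07), Becn1 (-0.03 ± 0.08), Ulk1 (0.25 ± 0.09) and Atg12 (0.25 ± 0.08) did not pass there. Prdx3, a mitochondrial peroxiredoxin gene, fell in TNF against CI by 0.82 ± 0.09. Sesn2, the remaining sestrin, differed by -0.65 ± 0.21 in TNF against CI, a call that 15 of 20 settings removed, among them leaving out CI replicate 1 (-0.72), CI replicate 2 (-0.59), TNF replicate 2 (-0.57), TNF replicate 3 (-0.50), or Dex replicate 1 or 2 (-0.65 each). Of the D-type cyclins that FOXO represses, Ccnd1 rose by 0.98 ± 0.11 in TNF and by 0.71 ± 0.11 in Dex against CI, whereas Ccnd2 (-0.04 and -0.16) did not pass with the probe set used and fell with the most variable one (-0.86 and -0.66).

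**Figure D4:**
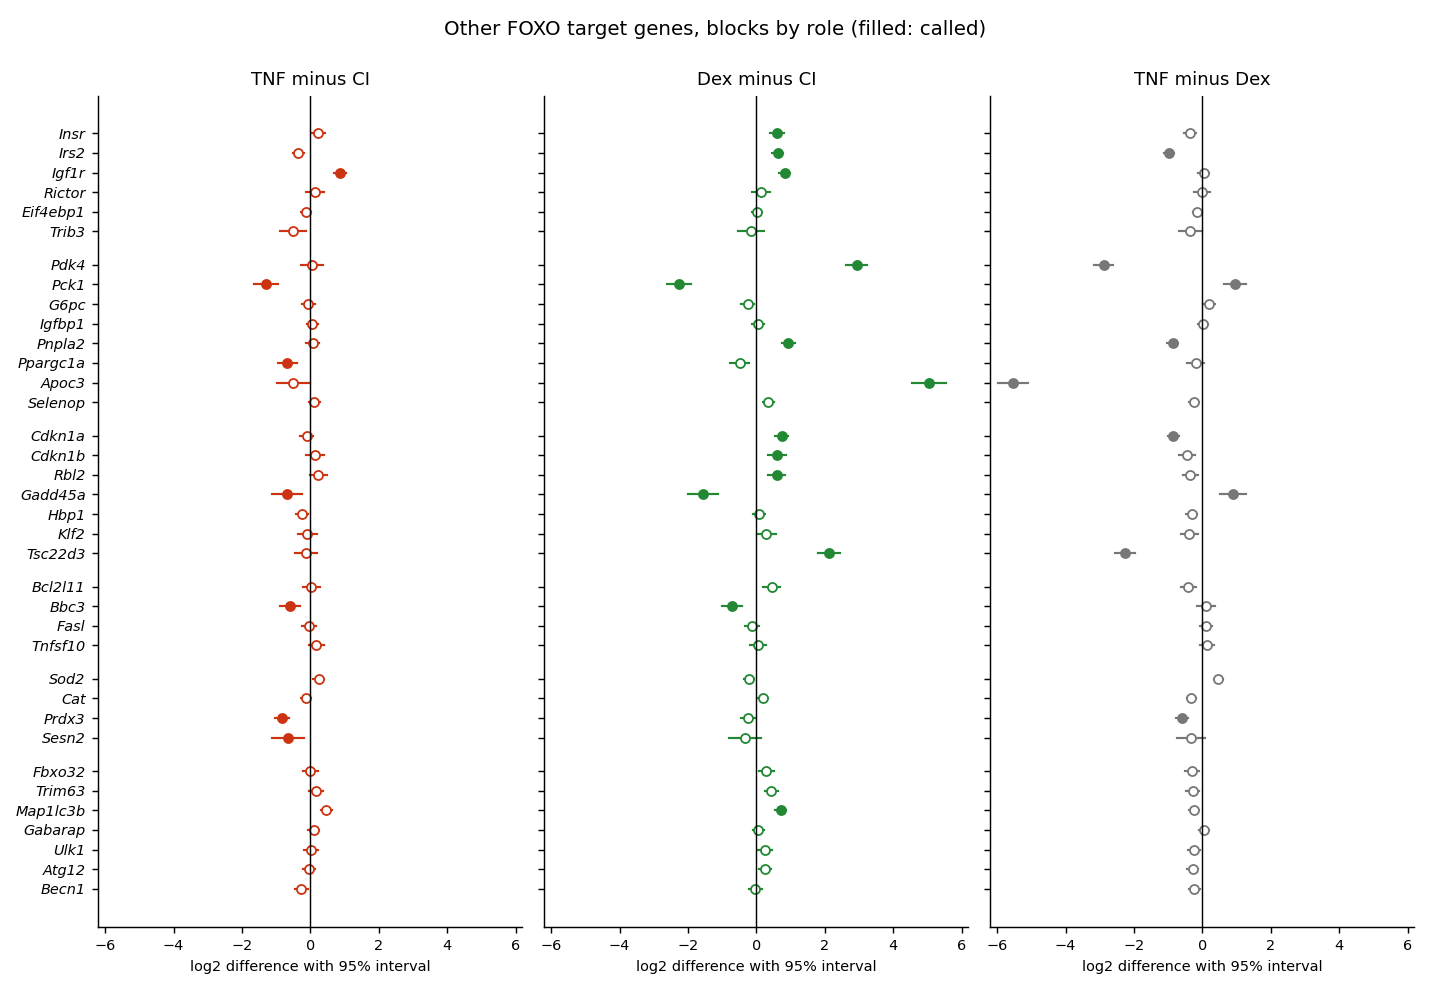
Log2 differences with 95% intervals (horizontal axis) of the 36 other FOXO targets (vertical axis, in blocks by role: insulin signalling, metabolism, growth arrest, cell death, antioxidant, autophagy), filled where called. Apoc3 (5.05) and Pdk4 (2.93) stand out to the right in Dex against CI and Pck1 (-2.26) to the left.

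Profiles like those of the most variable members were sought over the 8 arrays among 9086 genes brighter than the median gene, with each profile centred on its own mean. The measure was the root mean square difference between profiles, and Sesn3 and Bcl6 had the widest range of model means (0.99 each). Closest to Sesn3, whose own profile had a root mean square of 0.43, were Nudt6 (0.08), the syndecan gene Sdc2 (0.08) and Uba7 (0.08). For Nudt6 the CI arrays lay at 10.38 and 10.33, those of TNF at 10.04, 9.79 and 10.09, and those of Dex at 9.27, 9.29 and 9.13. Closest to Bcl6, with 0.44 for its own profile, were the repressor gene Hes1 (0.12), the retinoblastoma family gene Rbl1 (0.13) and Osbpl3 (0.16). Hes1 lay at 9.60 and 9.99 on the CI arrays, at 9.21, 8.54 and 8.51 under TNF, and at 9.39, 9.45 and 9.13 under Dex. Its highest array was CI replicate 2 and its lowest were TNF replicates 2 and 3, as for Bcl6. The search selected genes for such likeness over these same arrays, so it is not a separate result.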

How the data were processed

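Labelled cRNA made from the total RNA of 8 samples was hybridised to Affymetrix mouse genome arrays (mouse4302). The authors deposited 1 linear intensity per probe set and array (6.14 to 24273.6), and their methods give RMA, run in affyPLM, for background and normalization. Whether these intensities are RMA values with the log removed is not given in the sources used here. The design assumed log2 values, so log2 was taken with no pseudocount. Of 45101 probe sets, 64 controls were left out, and 34945 had 1 gene symbol in GEO's platform annotation. The design was 1 mean per model, fitted with limma 3.58.1 in R 4.3.3 (lmFit, eBayes, two-sided), as in the study's methods, and tested on simulated data. Figures and motif counts used Python 3.11.15. Arrays carry no read depth, so precision is set by how many there are. The members and lists were chosen with earlier results of these data known. Genes named beyond the members were called genes of each list, at most 6 per comparison by size, all genes of lists of 5 or fewer, and the 3 nearest profiles. Marker and check genes, Insr, Bbc3, the autophagy genes and the cell cycle inhibitor genes lie outside that rule and were named after their values were seen. Tsc22d3 is both in the FOXO target list and in the glucocorticoid check. Foxo6, Bnip3l, Plin1 and Ly6a are among listed genes not analysed here. Alternatives were other scalings, filters, probe set rules, eBayes settings, weights, a pseudocount of 16, a beta-actin covariate, thresholds, the replicate block and leaving out each array.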

Additional observations from a re-analysis of the deposited data

How the results depend on the processing

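Of 30 differences between models for the 10 members, 8 were called, and 6 of these remained called under all 20 settings (12 alternatives and 8 arrays left out in turn), the exceptions being Cited2 for TNF against CI and Sesn1 for TNF against Dex. Of the 22 not called, 9 were called under at least 1 setting, and no called difference changed sign. The members called for TNF against CI were 2, and 1 with quantile normalization, with eBayes trend and robust, or with the beta-actin covariate, 4 with no minimum difference and 0 with a minimum of 1. The count was 0 there because of the size limit, and 6 of the 10 had an unadjusted p under 0.05. For Dex against CI they were 3, and 5 with only the 2 groups compared, with the beta-actin covariate or with no minimum difference, and 0 with a minimum of 1. For TNF against Dex they were 3, and 5 with the most variable probe set or no minimum difference, 6 with array weights, and 0 with a minimum of 1. Over all genes, array weights gave 805 higher and 582 lower for TNF against Dex, beside 753 and 575 in the main fit. For Dex against CI, all genes gave 616 higher and 1045 lower with only the 2 groups compared, beside 605 and 1032. With an array left out the members called ran from 1 to 3, 3 to 5 and 2 to 6 in that order. A CI array left alone is assumed to vary like the other groups. TNF replicate 1 and Dex replicate 3 mattered most, since 6 were called for TNF against Dex without either.

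The other FOXO targets called were 7 for TNF against CI (4 with the beta-actin covariate, 12 with no minimum difference, 1 with a minimum of 1), 14 for Dex against CI (5 with a minimum of 1) and 9 for TNF against Dex (14 with the most variable probe set, 23 with no minimum difference, 3 with a minimum of 1). With an array left out they ran from 5 to 8, 13 to 15 and 9 to 12. The cause of these moves was not tested, except that a size limit removes calls by construction. Over all genes, the beta-actin covariate gave 517 higher and 1053 lower for TNF against CI, beside 545 and 951 in the main fit. The most variable probe set gave 847 and 808 for TNF against Dex, beside 753 and 575. All-gene counts at the other size limits are not given here. Member and target counts at those limits therefore show nothing particular to FOXO targets.

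Whether replicate numbers pair the samples was not settled. Deviations of same-numbered arrays correlated at -0.09 to 0.33 across genes, but differently numbered arrays were not compared in this way. With the replicate block the members called were 2, 4 and 3 and the other FOXO targets called 5, 15 and 9, in the same order, and Txnip in Dex against CI was called (0.70), while Gadd45a in TNF against CI was not (-0.60). Scaling changed the balance over all genes for TNF against CI, from 545 higher and 951 lower to 635 and 724 with quantile normalization and 443 and 1180 with arrays centred on their medians. The number of arrays and bright signals limit what can be read.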
